A study of Mus musculus with 4 samples.

Results

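Gene expression was compared between 2 of the 4 dendritic cell (DC) arrays of a series on mouse spleen, the array titled CD8+CX3CR1+ DC and the array titled CD4+ DC. The groups were taken from the sample titles, with 1 array on each side, and the comparison covers every gene that the array annotation names: 34945 of 45101 probe sets, which stand for 18193 genes. Both samples came from spleens of Cx3cr1gfp/+ C57BL/6 mice, in which a green fluorescent protein gene replaces 1 copy of the chemokine receptor gene Cx3cr1, so that these cells keep 1 working copy and cells with an active Cx3cr1 promoter fluoresce. The tissue was digested with collagenase D, CD11c+ cells were enriched magnetically and CD11chi cells were sorted, and both samples are labelled as not treated with BMP4. The mice's age and sex, the number of mice, pooling and the gates beyond the titles are unknown from the labels used here. The remaining arrays, CD8+CX3CR1- DC and DN DC, came from the same strain and procedure. They give reference levels, and they also entered the background floor and the choice of the probe set read for each gene. A second label for the cell type contradicts the titles of these reference arrays but not those of the compared pair.

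Spleen DCs take up antigen and present it to T cells, and they fall into conventional and plasmacytoid lineages. Conventional DCs with surface CD8 depend on the transcription factors Batf3 and Irf8 and are known for presenting the antigens of dead cells on MHC class I, whereas those with CD4 and CD11b depend on Irf4, Relb and Notch2 and are known for presentation on MHC class II. Plasmacytoid DCs depend on the transcription factor E2-2, encoded by Tcf4, and make type I interferon when nucleic acids bind their Toll-like receptors. CD8+CX3CR1+ DCs carry the surface marker of the first group, and the comparison with CD4+ DCs asks how far their transcripts are apart from those of the second.

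Values are MAS5 signal, a background-corrected intensity on a linear scale, and each array had been scaled to the same trimmed mean of 150.0. Signals below a floor of 55.48, set from smell and taste receptor and keratin-associated protein genes, lie in the range of background. They were raised to the floor, so a difference against such a value is a bound ("at least"). Differences are given as signal on the CD8+CX3CR1+ array over that on the CD4+ array, and a gene was called at 4-fold, a log2 difference of 2. With 1 array per group there was no replicate error and no test, and each difference describes these 2 arrays and not the cell types in other mice. Precision is limited by the number of arrays. The only internal measure of error was the disagreement between probe sets of the same gene in their log2 difference, with a median standard deviation of 0.39 over 4896 genes, which leaves out the spread between mice and sorts. The arrays also differed in technical measures: 41.9% of all probe sets lay above the floor in CD8+CX3CR1+ DCs and 47.8% in CD4+ DCs, and the 3'/5' signal ratio of the Gapdh controls, which rises as RNA integrity falls, was 8.98 and 11.8 in that order. The part of these differences in the results was not tested.

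The sort markers went with the titles. Cd8a, the CD8 alpha chain, reached 2530.2 in CD8+CX3CR1+ DCs and 18.7, under the floor, in CD4+ DCs, a difference of at least 45.6-fold. Its 5 probe sets above the floor gave log2 differences between 1.02 and 5.51. Cd8b1, the CD8 beta chain, was 192 against 39 (at least 3.46-fold). Cd4 was lower on the CD8+CX3CR1+ array, at 93.3 against 563.5 (6.04-fold), although its other probe set above the floor gave a log2 difference of -0.44. Cx3cr1 was 894 against 275, 3.25-fold higher in CD8+CX3CR1+ DCs and clearly above the floor on the CD4+ array too. Itgax, the CD11c chain that both sorts selected for, was 4399 against 6415, a log2 difference of -0.54.

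The profiles were close for most genes. Of 11595 genes above the floor on 1 or both arrays, 10408 (89.8%) lay within 2-fold of each other and the median log2 difference was -0.05. At 4-fold, 97 genes (0.837%) were called, 50 of them (0.431%) higher in CD8+CX3CR1+ DCs and 47 (0.405%) lower. At 2-fold, the counts were 567 higher (4.89%) and 620 lower (5.35%). These shares are the background against which the counts of the gene groups below are set. Of the genes called at 4-fold, 32 higher and 36 lower were measured above the floor on both arrays, and 18 higher and 11 lower were bounds. At 8-fold the sides were unequal, with 15 genes higher and 3 lower. The split depended on the scaling: with the arrays brought to an equal median, which raised the median difference of all genes from -0.05 to 0.26, 81.1% of the calls were in the higher direction, against 51.5% here.

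**Figure D1:**
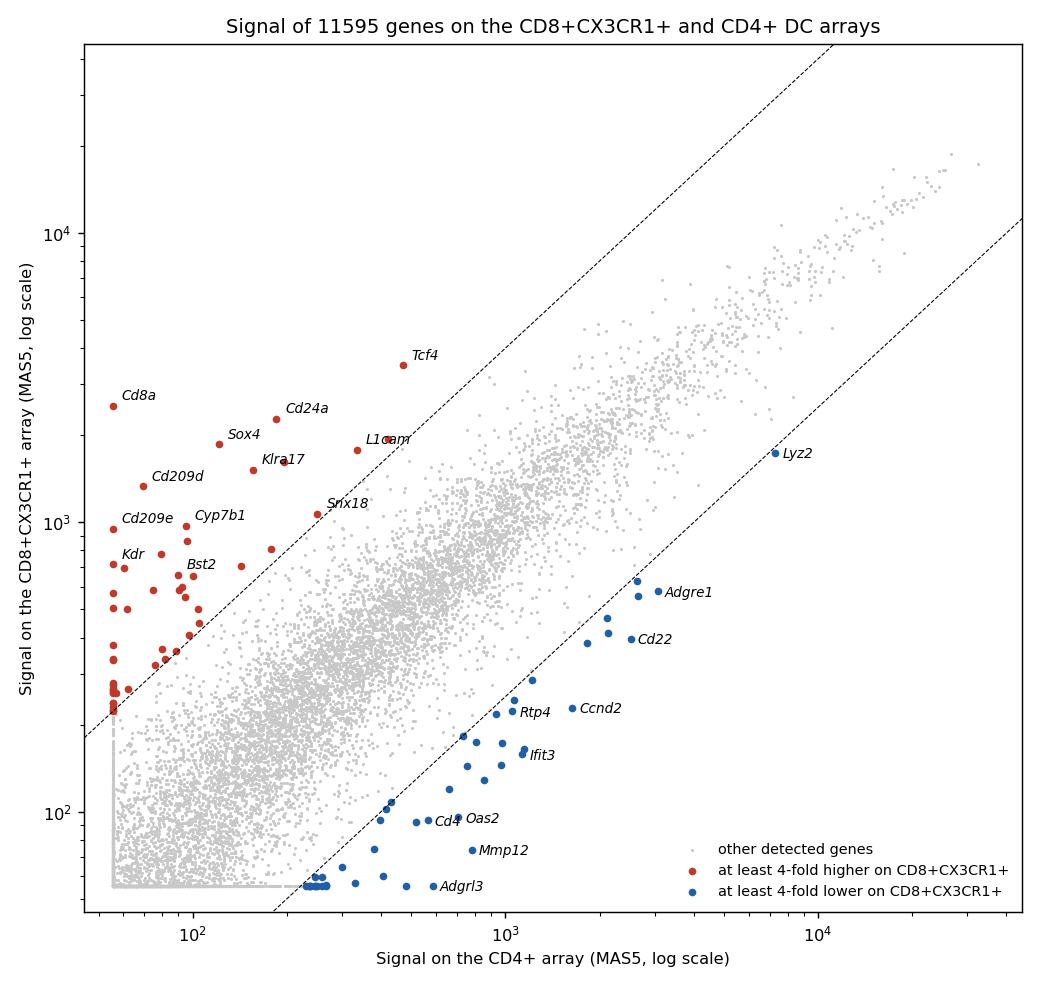
Signal of the 11595 detected genes on the CD4+ array (horizontal, log scale) and the CD8+CX3CR1+ array (vertical, log scale), with values under the floor of 55.48 drawn at it. Dashed lines mark 4-fold, beyond which lie 50 genes higher (red) and 47 lower (blue) on the CD8+CX3CR1+ array, and most grey points lie near the diagonal.

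The largest measured difference in favour of CD8+CX3CR1+ DCs was in Cd209d, a lectin gene related to DC-SIGN, at 1336 against 69.2 (19.3-fold). Its neighbour in the family, Cd209e, was the brightest bound after Cd8a, at 951 against 35, at least 17.1-fold higher. Both stood apart from the reference arrays as well: Cd209d was 13.5 in CD8+CX3CR1- and 179 in DN DCs, and Cd209e was 55.3 in CD8+CX3CR1- and 187.5 in DN DCs. Cd209d had 1 probe set above the floor, of a type that can match more than 1 transcript.

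Some further genes with large differences in the same direction have roles in progenitors or lymphocytes, but as a set were not a listed group. Sox4 belongs to the early lymphocyte list, and Blnk to the plasmacytoid DC list, among whose calls it is counted again below. Of the lists, B cells had 0 of 10 detected genes at least 4-fold higher and 1 lower (median -0.19), and early lymphocytes had 1 of 13 higher and 0 lower (median 0.04). Sox4, an HMG-box factor, was 1863 against 121 (15.4-fold), with log2 differences between 0.35 and 4.37 over 6 probe sets. Its reference signals were low, 22.5 in CD8+CX3CR1- and 139 in DN DCs. Myb, a factor of haematopoietic progenitors, was 862 against 96 (8.98-fold), Bach2, a repressor that acts in lymphocytes, 553 against 94.4 (5.86-fold, but a log2 difference of 0.998 without probe sets of the _x, _s and _a types, which can match more than 1 transcript), and Aff3, a nuclear protein gene expressed in lymphoid cells, 569 against 17.7 (at least 10.2-fold). Igha, the constant region of the immunoglobulin A heavy chain, was 694 against 60.5 (11.5-fold), and 3 probe sets for it ranged from 1.61 to 3.60 on the log2 scale. Blnk, an adaptor of B cell receptor signalling, was 334 against 15.5 (at least 6.03-fold). Beside these, the B cell genes Cd79a and Vpreb3 lay under the floor on both arrays, Ebf1 was 73.9 against 64.6 and Ighm was 4112 against 4319. Bach2 was named for its function after its values were seen.

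The other genes named on this side include enzymes and surface receptors. Cyp7b1, a hydroxylase of oxysterols, was 974 against 94.9 (10.3-fold), and Ptgr1, a prostaglandin reductase, 779 against 79.2 (9.83-fold). Kdr, which encodes the VEGF receptor VEGFR2, was 717 against 45.3 (at least 12.9-fold). Plvap, another gene known from endothelium, was 224 against 3.7 (at least 4.03-fold), whereas the endothelial marker Pecam1 was 11.1 against 58.4, so the first value is under the floor and the second just above it. The part of endothelial cells in these values was not tested. Lefty1, a secreted inhibitor of Nodal signalling, was 503 against 61.6 (8.17-fold), and it lay under the floor on both reference arrays. L1cam, an adhesion molecule gene, was 1784 against 335 (5.32-fold). Further genes among the largest measured differences were the heat-stable antigen gene Cd24a at 2279.7 against 185 (12.3-fold), the gene of the actin-binding protein Aif1l at 1613 against 196 (8.22-fold) and Dab2, an endocytic adaptor gene, at 583 against 74.8 (7.80-fold). Dab2 had a probe set with the opposite sign, at -0.51. Among the brightest bounds, Pdzd4 was at least 9.13-fold and Xkrx at least 6.10-fold higher. Plvap and L1cam were named for their function after their values were seen.

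In the other direction, Mmp12, the macrophage elastase gene, showed the largest measured difference, at 73.8 against 781 (10.6-fold). The next genes in order, Oas2 and Ifit3, and the lower-ranked Ifit1bl1 are described with the interferon-stimulated genes. Ccnd2, a G1 cyclin, was 229 against 1636 (7.15-fold), but its 6 probe sets ranged from -2.84 to 0.22 on the log2 scale. Abcb1a, the drug efflux pump P-glycoprotein, was 164 against 1146 (6.98-fold), and Rhof, a small GTPase, 59.8 against 405.5 (6.78-fold), with 1 probe set at 0.25. Adam8, a membrane metalloprotease gene, was 128 against 856 (6.67-fold), and Cd22, an inhibitory lectin of B cells, 396 against 2513 (6.34-fold). The 2 Cd22 probe sets were both lower, at -2.66 and -2.29, and Cd22 was 2713 on the DN array. Gpr4, a proton-sensing receptor gene, was 56.6 against 330.1 (5.83-fold), so that its CD8+CX3CR1+ signal barely exceeded the floor. Pram1, a myeloid adaptor gene, was 172.5 against 978 (5.67-fold). Among genes undetected in CD8+CX3CR1+ DCs, the brightest were Adgrl3, a latrophilin receptor gene, at 585 on the CD4+ array (at least 10.6-fold lower), and Rasgrf2, an exchange factor gene for Ras, at 483 (at least 8.70-fold). Without probe sets of the _x, _s and _a types the Adgrl3 difference was less than 4-fold. The other bounds named by rule, Trem3, Car7, Ttc39b, Irs2, Prss2 and Cdhr3, were between 237 and 267 on the CD4+ array.

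**Figure D2:**
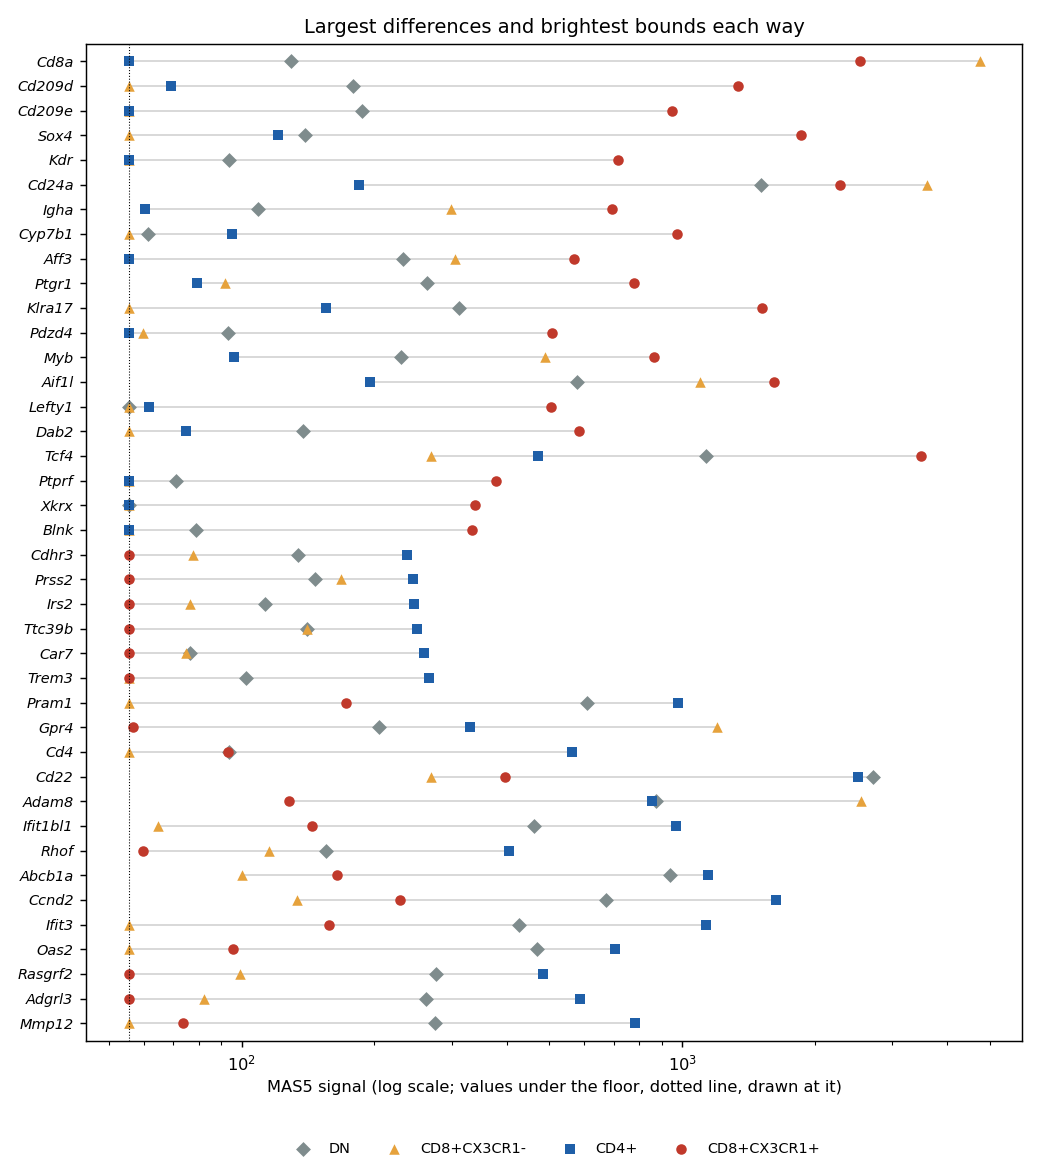
MAS5 signal (horizontal, log scale) of the genes with the largest measured differences and the brightest bounds each way on the CD8+CX3CR1+ (red circles), CD4+ (blue squares), CD8+CX3CR1- (orange triangles) and DN (grey diamonds) arrays, 1 array each, with values under the floor (dotted line) drawn at it. Upper rows, from Cd8a to Blnk, are higher on the CD8+CX3CR1+ array, and lower rows, from Cdhr3 to Mmp12, are higher on the CD4+ array, and Cd8a, Cd24a, Adam8 and Gpr4 reach their highest signal on the CD8+CX3CR1- array.

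Genes of plasmacytoid DCs were the group with the most calls in favour of CD8+CX3CR1+ DCs. Of 24 detected members of this list, 7 were at least 4-fold higher, against 0.431% of all detected genes, and 0 were lower. The count of 7 fell to 3 (Klra17, Bst2 and Blnk) when the probe sets of each gene were averaged, and Atp1b1 was at -0.039 without probe sets of the _x, _s and _a types. At 2-fold, 12 were higher and 2 lower, and the median log2 difference was 1.10, against -0.05 for all detected genes. The list was drawn up from general knowledge of the lineage, but with earlier results on these arrays known, and so it is not independent evidence of the direction. In bulk samples, fewer cells of a type and less RNA per cell cannot be told apart.

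The transcription factor at the head of the plasmacytoid programme, Tcf4, was 3489 against 470.0 (7.42-fold), and all 5 of its probe sets above the floor were higher, by 0.66 to 2.89 on the log2 scale. It was 269.5 in CD8+CX3CR1- and 1135 in DN DCs, so the CD8+CX3CR1+ signal was the highest of the 4. Its partner Spib, an Ets-family factor, was 1556.5 against 577 (2.70-fold), and Bcl11a, a zinc finger factor, 1271.5 against 748 (1.70-fold). Both of these differences fell short of 4-fold.

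Among surface molecules, Klra17, the lectin-like receptor Ly49Q, was 1519 against 156 (9.76-fold), and Bst2, the target of the PDCA-1 antibody, 659.5 against 89.8 (7.34-fold). Siglech, the sialic acid-binding receptor Siglec-H, was 206 against 5.8, with the CD4+ value under the floor (at least 3.71-fold). Ccr9, the receptor for CCL25, was 328 against 87.8 (3.73-fold, but a log2 difference of -0.10 without probe sets of the _x, _s and _a types), Lifr, a chain of the receptor for leukaemia inhibitory factor, 205 against 50.7 (at least 3.70-fold), and Ptprf, a receptor-type phosphatase gene, 378 against 27.4 (at least 6.82-fold). All 6 were above the floor on the CD8+CX3CR1+ array, and 3 of them, Siglech, Lifr and Ptprf, were under it on the CD4+ array. Of the other called members, Tex2 was 655 against 100.1 (6.54-fold) with a second probe set at 0.00, and Atp1b1, a subunit of the sodium pump, was 265 against 62.1 (4.27-fold) with probe sets between -0.039 and 2.09.

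Other members of the list went the other way or were not detected. Pld4, an endolysosomal nuclease gene, was lower on the CD8+CX3CR1+ array, at 825 against 2584 (3.13-fold), as were the RNA sensor gene Tlr7, at 184 against 452 (2.45-fold), and Irf7, the factor that drives interferon gene transcription, at 302 against 548 (1.82-fold). Tlr9 was 2.8 against 71.3 and Pacsin1 18.5 against 86, both undetected in CD8+CX3CR1+ DCs. Dntt (19 against 9.7) and Ly6d (54.5 against 23) lay under the floor on both. Lair1, an inhibitory receptor gene, was also lower, at 299 against 519 (1.73-fold), so members of more than 1 role lay on either side. Across the 4 arrays, 15 of the 24 members had their highest signal in CD8+CX3CR1+ DCs, 8 in CD4+ DCs, 1 in CD8+CX3CR1- DCs and 0 in DN DCs, and the DN signal lay between the CD8+CX3CR1+ and CD4+ signals for 13 of those that were higher on the CD8+CX3CR1+ array. Without probe sets of the _x, _s and _a types the list median was 0.55.

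**Figure D3:**
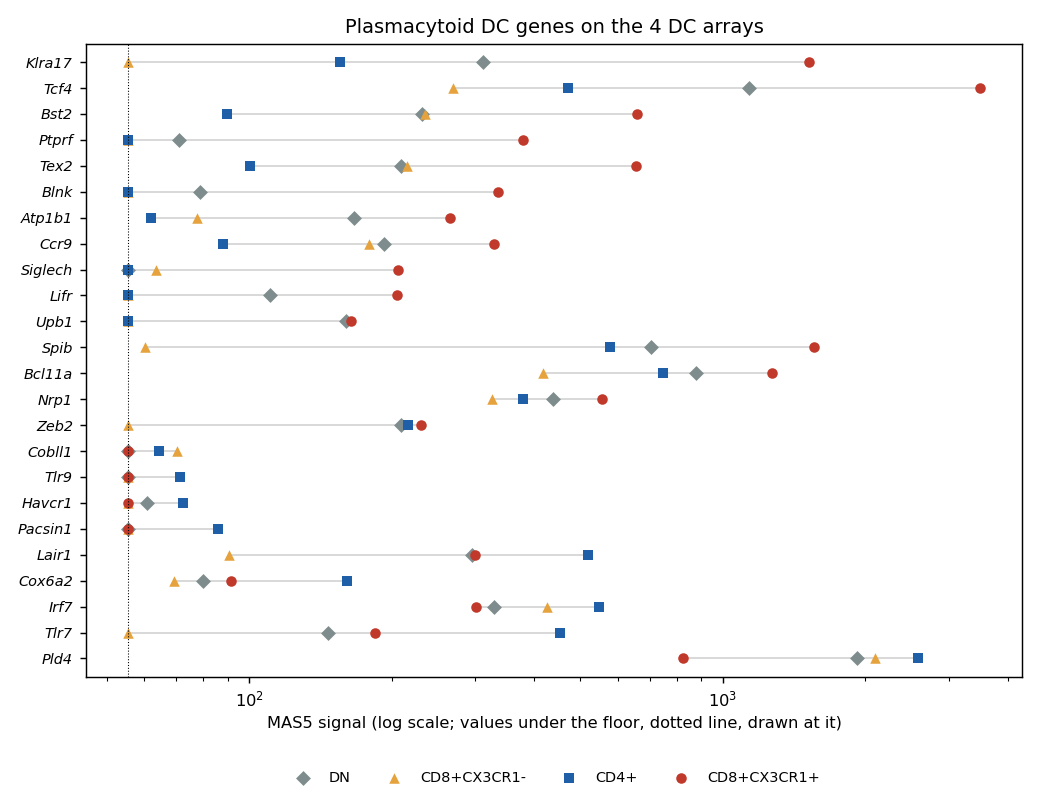
MAS5 signal (horizontal, log scale) of the 24 detected plasmacytoid DC genes on the 4 arrays, 1 array each, ordered by the difference between the CD8+CX3CR1+ (red circles) and CD4+ (blue squares) arrays, with values under the floor (dotted line) drawn at it. Red circles lie furthest to the right from Klra17 down to Zeb2, and blue squares lie to the right of them from Cobll1 to Pld4.

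Interferon-stimulated genes were the group with the most calls in favour of CD4+ DCs. Of 35 detected members, 7 were at least 4-fold lower in CD8+CX3CR1+ DCs, against 0.405% of all detected genes, and 1 was at least 4-fold higher. The count of 7 fell to 3 (Oas2, Ifit3 and Ddx58) with the arrays brought to an equal median and to 5 with probe sets averaged. At 2-fold, 15 were lower and 1 higher, and 31 were lower by any amount. The median log2 difference was -0.86, and with an equal median of the arrays it was -0.53, where all genes had a median of 0.26. These genes are switched on when type I interferon acts through the factor ISGF3 on a DNA element called the interferon-stimulated response element (ISRE).

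Oas2, an enzyme that activates RNase L, was 95.6 against 704 (7.36-fold lower), and its relatives Oas1a and Oas3 were 286 against 1216 (4.25-fold) and 24.3 against 197 (at least 3.55-fold). Ifit3 and Ifit2, of the family of RNA-binding Ifit proteins, were 158 against 1133 (7.18-fold) and 217 against 932 (4.29-fold), while Ifit1 was 92.7 against 203 (2.19-fold). Ifit1bl1, a relative of these outside the list, was 144.5 against 966 (6.69-fold). The CD4+ signal was the higher in each of these genes. On the reference arrays, Oas2 was 2.5 in CD8+CX3CR1- and 468 in DN DCs, and Ifit3 40.8 in CD8+CX3CR1- and 427 in DN DCs, so the DN signal came closer to the CD4+ signal than the CD8+CX3CR1+ signal did.

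The RNA sensor family showed the same direction, with Ddx58, which encodes RIG-I, at 74.6 against 379.9 (5.09-fold), Dhx58 at 197 against 681 (3.46-fold) and Ifih1, which encodes MDA5, at 1061.5 against 2196 (2.07-fold). Rtp4 was 222 against 1053 (4.74-fold), and the exonuclease gene Isg20 243 against 1068 (4.39-fold). Members with smaller differences included the signalling genes Irf9 at 394 against 541 and Stat2 at 299 against 335, and Trim30a at 2660.1 against 2685. Irf9 and Stat2, which are parts of ISGF3, were thus not among the 7 genes past 4-fold.

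The only member at least 2-fold higher in CD8+CX3CR1+ DCs was Bst2, at 7.34-fold, which stands in both the plasmacytoid and the interferon-stimulated list. Ifi35, Oasl1 and Samd9l were higher by small log2 differences of 0.07, 0.12 and 0.29. Across the 4 arrays, 24 of the 35 genes had their highest signal in CD4+ DCs, 5 in CD8+CX3CR1- DCs, 5 in DN DCs and 1, Bst2, in CD8+CX3CR1+ DCs. For 20 of the 35 the DN signal lay between a higher CD4+ and a lower CD8+CX3CR1+ signal. The CD4+ array was also the array with the higher Gapdh 3'/5' ratio, as given above, whose part in this result was not tested.

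To show where the response element lies in genes at either end of this list, its core (GAAA, any 2 bases, GAAA) was searched on both strands, overlaps included, in RefSeq promoters (GRCm38.p6, 250 bases before to 50 after the gene's start). It was present in 13 of the 27 detected list members that have a promoter entry, and in 3.99% of 27025 genes. Among members at least 4-fold lower in CD8+CX3CR1+ DCs 3 of the 5 with an entry held it, and among the other members 10 of 22. The 3 were Ifit3, Oas1a and Ddx58, where the match starts after the gene's start. The 250 bases before the start of Ifit3 (chr19:34583279-34583528, plus strand), Oas1a (chr5:120907526-120907775, minus strand) and Bst2 (chr8:71537473-71537722, minus strand) are given 5′ to 3′ in the direction of the gene, with the matches in capitals.
Ifit3: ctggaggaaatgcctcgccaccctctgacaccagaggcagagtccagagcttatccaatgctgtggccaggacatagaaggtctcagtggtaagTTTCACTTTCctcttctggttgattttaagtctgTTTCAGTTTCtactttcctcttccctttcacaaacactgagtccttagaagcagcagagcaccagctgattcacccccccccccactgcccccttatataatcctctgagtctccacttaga
Oas1a: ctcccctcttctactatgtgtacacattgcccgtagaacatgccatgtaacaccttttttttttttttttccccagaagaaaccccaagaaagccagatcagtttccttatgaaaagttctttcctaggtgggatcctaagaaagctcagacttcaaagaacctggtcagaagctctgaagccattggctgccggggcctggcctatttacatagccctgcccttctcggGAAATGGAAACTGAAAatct
Bst2: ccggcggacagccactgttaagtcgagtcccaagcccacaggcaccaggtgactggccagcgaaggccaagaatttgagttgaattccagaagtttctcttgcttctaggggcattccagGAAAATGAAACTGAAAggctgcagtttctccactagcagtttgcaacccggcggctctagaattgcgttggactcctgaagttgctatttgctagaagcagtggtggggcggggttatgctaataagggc
In Ifit3 both matches are on the reverse strand and start 156 and 122 bases before the gene's start. In Bst2 a pair of overlapping matches starts 130 and 124 bases before it, and in Oas1a a like pair starts 20 and 14 bases before it. A match is a description of these letters and not a measured site. Bst2, which was higher on the CD8+CX3CR1+ array, and Oas1a, which was lower, thus hold the same arrangement of overlapping cores at different distances.

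**Figure D4:**
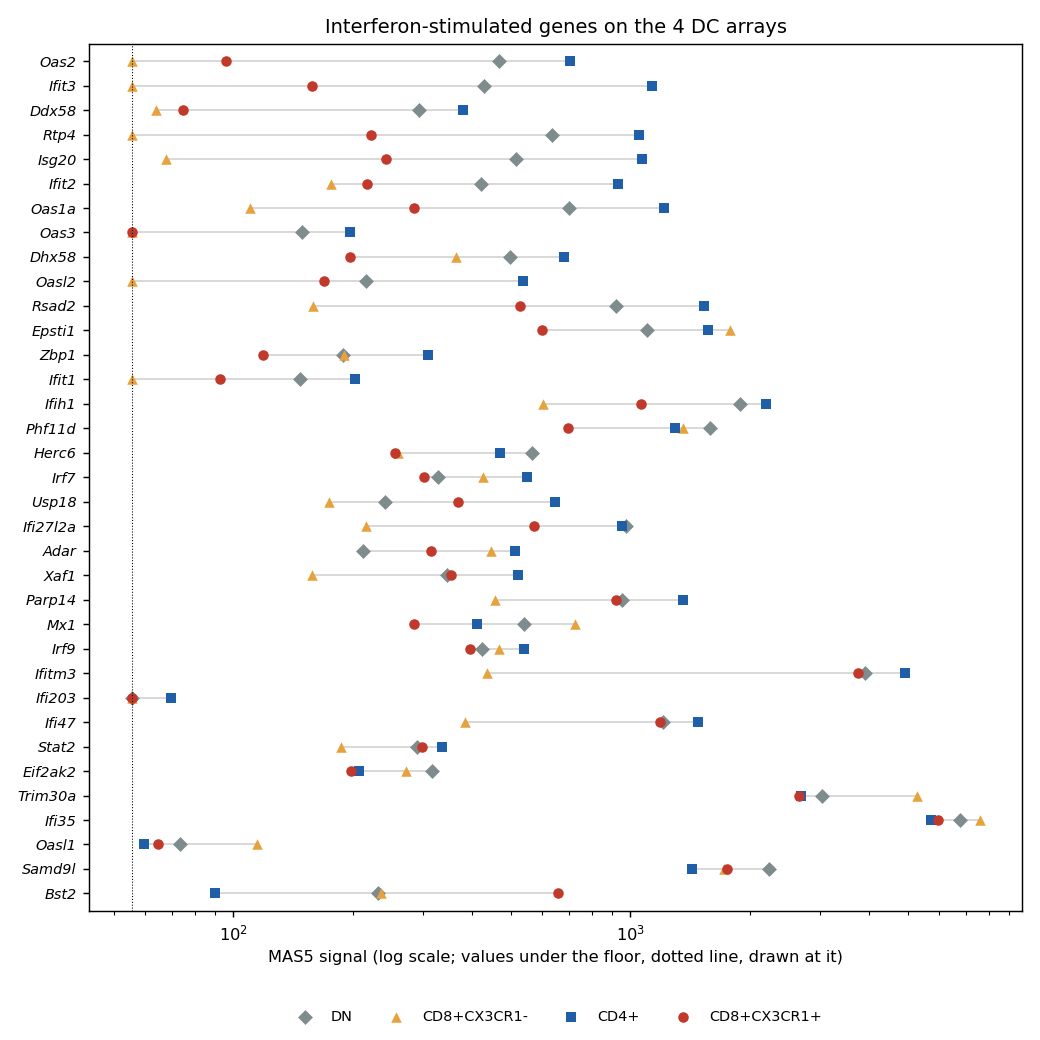
MAS5 signal (horizontal, log scale) of the 35 detected interferon-stimulated genes on the 4 arrays, 1 array each, ordered by the difference between the CD8+CX3CR1+ (red circles) and CD4+ (blue squares) arrays, with values under the floor (dotted line) drawn at it. Blue squares lie to the right of red circles in 31 genes, and Bst2, in the lowest row, shows the reverse.

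Few genes that define the conventional DC subsets passed 4-fold. At 2-fold both of their lists exceeded the shares of all detected genes, 4.89% higher and 5.35% lower, with members on either side. Most genes of the CD8 DC list were brightest on the CD8+CX3CR1- array rather than on either array of the pair. Among the CD8 DC (cDC1) genes, of which 24 were detected, 1 was at least 4-fold higher in CD8+CX3CR1+ DCs and 0 lower, 5 were at least 2-fold higher and 2 lower, and the median was 0.35. The member past 4-fold was Cd24a. Irf8, the lineage factor, was 1409 against 617 (2.28-fold), Naaa, a lysosomal acid amidase gene, 772 against 228 (3.39-fold), and Btla, an inhibitory receptor gene, 2342 against 826 (2.84-fold). All 3 differences were below 4-fold, and Irf8 and Naaa were far below their CD8+CX3CR1- signals of 13285 and 7460.

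The partner factor Batf3 was instead lower, at 1028 against 2678 (2.60-fold), and Id2 was 236 against 425 (1.80-fold), with 3 probe sets between -2.67 and -0.85 on the log2 scale and -1.64 when they were averaged. Tlr3, the receptor for double-stranded RNA, was 98.4 against 59.2, the adhesion molecule gene Cadm1 245 against 158, the integrin gene Itgae 105 against 97.2 and the scavenger receptor gene Cd36 57.8 against 31.7. These 4 signals were low on both arrays, against 1338, 2621, 1130 and 1454 on the CD8+CX3CR1- array in the same order. Xcr1, the chemokine receptor of cross-presenting DCs, was 22.9 against 44.2, under the floor on both. Of the 24 genes, 20 had their highest signal on the CD8+CX3CR1- array.

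The list of CD4 and CD11b DCs (cDC2) likewise had few genes past 4-fold, but more at 2-fold, in both directions. Of 19 detected genes 1 was at least 4-fold lower in CD8+CX3CR1+ DCs and 0 higher, 4 were at least 2-fold lower and 5 higher, and the median was 0.09 (between -0.10 and 0.42 under other settings). Lyz2, the lysozyme gene, was the member past 4-fold, at 1736 against 7284 (4.20-fold). Esam, an adhesion molecule of Notch2-dependent DCs, was 167 against 582 (3.49-fold), Ccr6 343 against 1094 (3.19-fold) and Clec4a2, a lectin with an inhibitory tail, 498 against 1119 (2.25-fold). Irf4, the lineage factor, was higher on the CD8+CX3CR1+ array, at 880.0 against 305 (2.89-fold), as was Klf4, at 1103 against 477 (2.31-fold). Their lowest log2 differences under other settings were 0.76 and 0.65.

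Several of the brightest members were nearly level. Csf1r, the receptor for macrophage colony-stimulating factor, was 11291 against 13894, the calcium-binding protein gene S100a4 8947 against 7229.6, the lymphotoxin beta gene Ltb 2146 against 1568, the phagocytosis checkpoint receptor gene Sirpa 731 against 963 and the lectin gene Cd209a 996 against 651. Their CD8+CX3CR1- signals were 498, 34, 103, 64.1 and 2.4. The arrays titled CD8+CX3CR1+ and CD4+ thus shared signals of this list that the CD8+CX3CR1- array lacked or held at a lower level. The pair was not alone in this. The summed signal of the list was 36579 in CD8+CX3CR1+, 43438 in CD4+ and 32910 in DN DCs, against 5656 in CD8+CX3CR1- DCs.

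Among DC transcription factors, 1 of 34 detected genes passed 4-fold, Tcf4, with a median of 0.26. Runx1, a factor of early haematopoiesis and DC precursors, was 949 against 303 (3.13-fold), Tcf12, an E protein, 237 against 92.9 (2.55-fold) and Bcl6, a repressor, 1309 against 652 (2.01-fold). On the other side were Irf1 at 813 against 1779 (2.19-fold) and Klf2 at 198 against 418 (2.11-fold). Factors shared by the DC lineage were Spi1, which encodes PU.1, at 1213.5 against 1107, and Ikzf1, which encodes Ikaros, at 2570.0 against 1954. Zbtb46, a factor of conventional DCs, was 288 against 324, but its 3 probe sets ranged from -0.17 to 1.39 on the log2 scale. Tcf12 was at 0.34 with probe sets averaged.

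C-type lectins, which bind carbohydrates on microbes and self glycoproteins, were split. Of 27 detected, 3 were at least 4-fold higher in CD8+CX3CR1+ DCs, Cd209d, Cd209e and Klra17, and 0 lower, 7 were at least 2-fold higher and 6 lower, and the median was 0.31. Cd209c was 415 against 144 (2.88-fold), the mannose receptor gene Mrc1 189 against 67 (2.82-fold) and Klrk1, which encodes NKG2D, 240.1 against 76.5 (3.14-fold). Clec4n, which encodes Dectin-2, was lower, at 348 against 868 (2.49-fold), as was Klrb1b, at 34.3 against 168 (at least 3.02-fold). Clec7a, which encodes the beta-glucan receptor Dectin-1, was bright on both arrays, at 4128 against 4425.

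Chemokine receptors guide DCs through tissue. Of 10 detected, 2 were at least 4-fold higher in CD8+CX3CR1+ DCs and 0 lower, with a median of 0.09 that changed sign under 5 of 9 other settings. Ccr2, the receptor that brings monocytes and DC precursors to tissue, was 705 against 143 (4.94-fold), with 4 probe sets between 0.74 and 2.30, and Ccr1 was 274 against 2.2 (at least 4.94-fold). Gpr183, a receptor for oxysterols, was 2689.5 against 1234 (2.18-fold). Ccr7, which directs DCs to T cell zones, was lower, at 359.8 against 845 (2.35-fold). None of the 10 detected chemokine ligands passed 4-fold. Ccl3 was 55.6 against 200.3 (3.60-fold) and Cxcl16 344 against 915 (2.66-fold), both lower on the CD8+CX3CR1+ array. Cxcl1, which was in no list, passed 4-fold as a bound at 16.5 against 236 with a probe set that may match more than 1 transcript, and had the opposite sign (0.19) without such probe sets.

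Cytokine and growth factor receptors differed mainly below 4-fold. Of 29 detected, 1 was at least 4-fold lower, Csf3r, the receptor for granulocyte colony-stimulating factor, at 64.5 against 300.4 (4.66-fold), and the median was -0.23, or 0.10 with the arrays at an equal median. The precursor and lymphoid receptors Flt3 and Il7r were higher on the CD8+CX3CR1+ array, at 3749 against 1717 (2.18-fold) and 559 against 229 (2.45-fold). The decoy receptor gene Il1r2 was lower, at 336 against 1014.5 (3.02-fold), as was Il21r, at 95.4 against 288 (3.02-fold).

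In antigen presentation 1 gene of 36 detected passed 4-fold. Of 15 genes of MHC class II presentation, H2-Eb2, a class II beta chain gene, was 414 against 2129 (5.14-fold lower), while the classical chains H2-Aa, H2-Ab1 and H2-Eb1 were 17304 against 32503, 12618 against 17330.3 and 11678 against 17224, and the list median was -0.10. Of 21 genes of MHC class I presentation and cross-presentation 0 passed, with a median of -0.17, and the immunoproteasome subunit gene Psmb8 was 1529.8 against 3237 (2.12-fold). Both medians were above 0 when the arrays were brought to an equal median.

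Costimulation and maturation genes had a median of -0.66 over 14 detected members, of which 0 passed 4-fold, 3 were at least 2-fold lower and 2 higher. The ligands of CD28 and PD-1 were lower on the CD8+CX3CR1+ array, with Cd86 at 312 against 811.5 (2.60-fold), Pdcd1lg2 at 172 against 457 (2.66-fold) and Cd274 at 253 against 505 (1.99-fold), whereas Cd80 was 176 against 181. Tnfsf9, which encodes the ligand 4-1BBL, and the actin-bundling gene Fscn1 were higher, at 259 against 96.7 (2.68-fold) and 6879 against 3159.9 (2.18-fold). The direction of Fscn1 depended on probe sets of the _x, _s and _a types, with -0.07 without them. With the arrays at an equal median the list median was -0.13.

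Genes of the phagocyte oxidase, which makes superoxide, had a median of -0.72 over 7 detected members. Ncf4, which encodes the p40phox subunit, was 382 against 1821 (4.76-fold lower), and Ncf1 2087 against 4313 (2.07-fold). The catalytic subunit gene Cybb was in contrast 4728 against 3569, a log2 difference of 0.41.

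Genes of macrophages and monocytes were mixed. Among 16 detected genes of red pulp macrophages, 1 was at least 4-fold lower, Adgre1, which encodes F4/80, at 578.5 against 3068 (5.30-fold; 143 in CD8+CX3CR1- and 1692 in DN DCs), while 6 exceeded 2-fold in the higher direction (median 0.10). Fcna, a ficolin gene, was 193 against 44.7 (at least 3.48-fold), the engulfment receptor gene Mertk 165 against 50 (at least 2.97-fold) and C1qb, a chain of complement C1q, 742 against 358 (2.07-fold). C1qa and C1qc were level, at 197 against 203 and 185 against 206, and Spic, the factor of red pulp macrophages, was 56.9 against 70.5, close to the floor. The summed signal of this list was 5635 in CD8+CX3CR1+ DCs and 8610 in CD4+ DCs, and most of the gap between these sums lay in Adgre1.

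Of 10 detected monocyte genes, Lyz2 was at least 4-fold lower and Ccr2 at least 4-fold higher, with a median of -0.29 (0.05 with the arrays at an equal median) and a summed signal of 19447 against 25524. F13a1, Fn1 and Itgam were under the floor on both arrays. Spn, which encodes CD43, was 701 against 222 (3.15-fold) and the co-receptor gene Cd14 449 against 197 (2.28-fold), both higher on the CD8+CX3CR1+ array. Of the 7 genes of marginal zone and metallophilic macrophages, Marco, Siglec1 and Timd4 were under the floor on both, and Cfp, the properdin gene, was 2988 against 1445 (2.07-fold).

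The lists of cell cycle genes and of genes of the stress of cell isolation leaned towards the CD4+ array, and none of their members passed 4-fold. The called G1 cyclin gene Ccnd2, described above, is not in the list. Of 27 detected cell cycle genes 22 were lower on the CD8+CX3CR1+ array, with a median of -0.38, and the proliferation marker Mki67 was 1383 against 2262 (1.64-fold). Of 28 immediate early and dissociation stress genes 22 were lower, with a median of -0.29, and Atf3 was 158 against 428 (2.71-fold). Over all detected genes 6228 of 11595 were lower. With the arrays at an equal median these medians were -0.05 and 0.04.

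The remaining functional groups held few calls. None of 17 Notch genes passed 4-fold, and their median of -0.18 was 0.08 with the arrays at an equal median. The Notch target Dtx1, a ubiquitin ligase gene, was 776 against 2895 (3.73-fold lower), and the receptor gene Notch1 was 256 against 78.9 (3.25-fold higher). The core motif of the Notch partner RBPJ, GTGGGAA on either strand, was present in the promoter window of 1 of 14 detected members, Lfng, and of 7.25% of genes in the table. None of 15 Toll-like receptor genes passed (median -0.37), with Tlr7 and Tlr6 (158 against 331) lower and the LPS co-receptor gene Cd14 higher. None of 11 Fc and complement receptor genes passed (median 0.25), and Fcer1g, the common gamma chain, was 3693 against 3903.

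Of 19 S100, annexin and galectin genes (median -0.12, or 0.21 with the arrays at an equal median) 1 passed, Ahnak, a scaffold protein gene, at 598 against 92.5 (6.47-fold). The intermediate filament gene Vim was 4478 against 1983 (2.26-fold), and Anxa1 was lower, at 733 against 1591 (2.17-fold). None of 25 integrin and adhesion genes passed (median -0.29, or 0.02 with the arrays at an equal median), although Cd151, a tetraspanin gene, came to the edge at 1100.1 against 275 (a log2 difference just under 2, but -0.01 without probe sets of the _x, _s and _a types), and the platelet integrin gene Itgb3 was 658 against 268 (2.45-fold). None of 18 genes of glycolysis, glucose uptake and hypoxia passed (median 0.14), with Slc2a3, a glucose transporter gene, at 2505 against 1297 (1.93-fold).

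**Figure D5:**
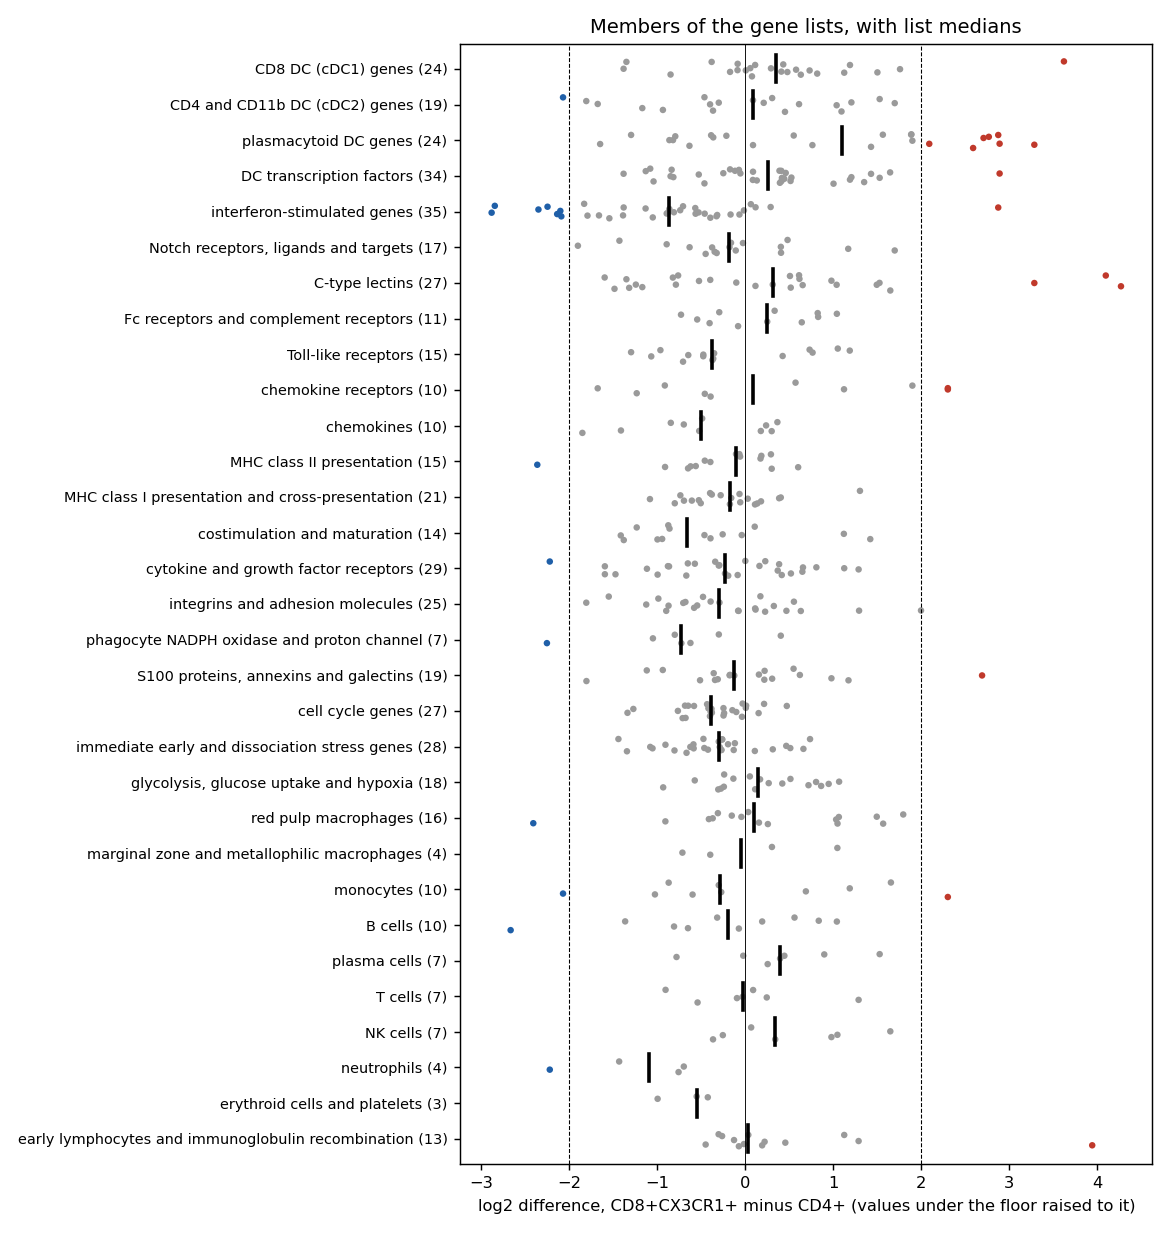
log2 difference between the CD8+CX3CR1+ and CD4+ arrays (horizontal) for each detected member of the 31 gene lists, with the number detected in parentheses, black bars at the list medians and dashed lines at 4-fold. Members past 4-fold are red (higher on CD8+CX3CR1+) or blue (lower), and the plasmacytoid DC list holds more red points (7), and the interferon-stimulated list more blue points (7), than any other list.

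T cell, neutrophil, erythroid and platelet markers were mostly near or under the floor, whereas most B cell and plasma cell genes were detected. Of 12 T cell genes on the array 7 were detected, with Cd3e at 65.8 against 19.8, Cd3d at 59.1 against 13.2, and Cd3g and Thy1 under the floor on both arrays, and the median was -0.03, or 0.17 with the arrays at an equal median. The summed signal of the list was 1030.0 against 745, and Il7r made up more of it than any other member on the CD8+CX3CR1+ array. Of 12 natural killer (NK) cell genes 7 were detected and 0 passed 4-fold (median 0.34; summed signal 4463 against 2354). Ncr1, Gzmb and Nkg7 were under the floor on both, while Klrd1, which encodes CD94, was 3723 against 1886 (1.97-fold). Of 13 B cell genes 10 were detected and 1 passed, Cd22 (median -0.19, or 0.14 with the arrays at an equal median; summed signal 6018 against 8284). Cd79b was 593 against 402 and Ms4a1, which encodes CD20, 361 against 202 (1.79-fold).

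Of 8 plasma cell genes 7 were detected and 0 passed, with a median of 0.40 and a summed signal of 3072 against 1999.0. Most of the gap between these sums lay in Irf4, which is also in the list of CD4 and CD11b DCs. Jchain, the joining chain of polymeric immunoglobulin, was 162 against 136, Mzb1 103.5 against 30.8 and Sdc1, which encodes CD138, under the floor on both. These values stand beside the higher Igha signal of the CD8+CX3CR1+ array, and the part of plasma cells in it was not tested. Of 19 genes that mark early lymphocytes or recombine immunoglobulin loci, 13 were detected and 1 passed, Sox4 (median 0.04; summed signal 11155 against 7218). Most of the gap between these sums lay in Flt3 and Sox4. The recombinase gene Rag1, Dntt and Vpreb1 were under the floor on both arrays, and Rag2 was 64.7 against 35.6. Of 11 neutrophil genes 4 were detected, with Csf3r past 4-fold and S100a8 and S100a9 under the floor on both, and a summed signal of 347 against 811. The summed signal of 10 erythroid and platelet genes was 455 against 677, with 3 detected and 0 past 4-fold.

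The reference arrays entered the calls only through the floor and the choice of probe set. Their signals showed where the called genes stood in the other subsets. Of the 50 genes at least 4-fold higher in CD8+CX3CR1+ DCs, the CD8+CX3CR1- signal lay nearer on the log2 scale to the CD4+ signal for 34 and nearer to the CD8+CX3CR1+ signal for 16, and the DN signal for 31 and 19. In 19 of the 50 the CD8+CX3CR1+ signal was at least 4-fold above each of the other 3 arrays, among them Sox4, Cyp7b1, Lefty1, Kdr and Cd209d, which exceeded the next array by 13.4-fold, 10.3-fold, 8.17-fold, 7.64-fold and 7.46-fold. Of the 47 genes at least 4-fold lower, the CD8+CX3CR1- signal lay nearer to that of the CD8+CX3CR1+ array for 37 and nearer to the CD4+ array for 10, while the DN signal lay nearer to the CD4+ array for 36 and nearer to the CD8+CX3CR1+ array for 11. Only 1 of the 47, Cd4 itself, was at least 4-fold higher on the CD4+ array than on each of the other 3 arrays (6.00-fold above the DN array). Most of the genes lower in CD8+CX3CR1+ DCs thus had a DN signal nearer to that of CD4+ DCs. The median log2 difference of the DN from the CD4+ signal over the 47 was -0.82. The CD4+ signal was the highest of the 4 for 40 of them. Because each call required a gap within the pair, the call itself favours the higher array of the pair as the highest of the 4. Such counts, and the 19 genes apart from each other array, describe the called genes and are no separate support for the calls.

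Probe sets bear on how far each call can be read. Of the 97 called genes 46 had a further probe set above the floor, and in 37 of these all of them pointed the same way. The other 51 calls rested on a single probe set above the floor. A total of 27 of the 97, 17 higher and 10 lower, stayed past 4-fold under each of 8 other settings of scaling, floor and probe set choice that gave a value. Of these settings, the floor at the 75th percentile and no floor could only widen a called difference, so neither could remove a call. Averaging changes nothing for a gene with a single probe set. Among the 27 were Cd8a, Cd209d, Cd209e, Kdr, Cd24a, Igha, Cyp7b1, Ptgr1, Klra17, Lefty1 and Bst2 on one side and Mmp12, Oas2, Ifit3, Ifit1bl1, Adam8, Cd22, Adgre1 and H2-Eb2 on the other. The probe set of Cd209d is of the _a type, so the setting without such probe sets gave this gene no value. Tcf4, Tex2, Ptprf, Atp1b1, Sox4, Myb, Aif1l, Dab2, Pdzd4, L1cam, Ahnak, Ccr1, Ccr2, Cd4, Ccnd2, Abcb1a, Rhof, Adgrl3, Rasgrf2, Ddx58, Rtp4 and Cxcl1 were under 4-fold, in the same direction, when all probe sets of a gene were averaged. Csf3r, Ncf4 and Lyz2 were under it with the arrays at an equal median, and Plvap and Ccr1 with the floor at the 95th percentile. Some differences short of 4-fold also shrank under other settings. The lowest log2 values were 0.85 for Cx3cr1 and Notch1, 0.74 for Naaa, 0.65 for Itgb3 and 0.29 for C1qb.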

How the data were processed

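Biotin-labelled RNA of sorted spleen DCs was measured on Affymetrix Mouse Genome 430.2 arrays. The deposited values are intensity values (MAS5 signal, linear scale) per probe set, made by the authors with MAS5 per the submitters' processing notes; no version is stated in the labels used here. After trimming 2% at each end, the mean was 150.0 on all 4 arrays, so signals are relative to each array's whole. Their number limits the precision.

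Probe sets with 1 gene symbol in the platform annotation were kept (34945); 932 with several symbols, 9160 with none and 64 controls were left out. The floor of 55.48 is the 90th percentile, over all 4 arrays, of 128 probe sets of chemosensory receptor and keratin-associated protein genes. Each gene was read from 1 probe set, the brightest by mean log2 signal on the 4 arrays. Differences were taken on the log2 scale (Python 3.11.15, pandas 2.3.3, numpy 2.4.6), and the calling step was tested on simulated data. Named genes were the sort markers, list members past 4-fold or among the 4 largest differences of their list, the 12 largest measured differences and the 8 brightest bounds each way. Further list members are named as defining genes, and all others as stated. The comparison and its 31 lists were chosen with earlier results of these data known. Alternatives were quantile normalization, an equal median, 4 other floor rules, 3 other probe set rules and, added after seeing the data, a 2-fold threshold and genes above the floor on both arrays only.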

Additional observations from a re-analysis of the deposited data

How the results depend on the processing

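With 1 array per group, only processing could be varied. The counts of 50 genes higher and 47 lower at 4-fold became 90 and 21 with an equal median, 93 and 96 with the floor at the 75th percentile, 1218 and 1878 with no floor, and 24 and 26 with probe sets averaged. They were 77 and 65 with each probe set counted, and, as choices added after seeing the data, 567 and 620 at 2-fold and 32 and 36 with genes above the floor on both arrays only. With quantile normalization they were 48 and 49. Of the 97 genes, 70 fell below 4-fold under 1 or more settings, 48 of them with probe sets averaged. Without _x, _s and _a probe sets, 3 of the 97 changed direction: Atp1b1 (-0.039), Cxcl1 (0.19) and Dab2 (-0.51). Of 279 list medians recomputed, 14 moved by more than the spread of probe sets and 265 did not. The plasmacytoid median was 0.55 without those types, and the costimulation median -0.13 with an equal median. With no floor, the medians were -0.52 for chemokine receptors, 0.72 for marginal zone macrophages, -0.65 for B cells, 0.96 for plasma cells and 0.49 for T cells. With the floor at the 95th percentile they were 0.57 for chemokine receptors, -0.51 for T cells and -0.70 for neutrophils, and at the 75th percentile -0.32 for chemokine receptors. With genes above the floor on both arrays only they were 0.57 for chemokine receptors, 0.68 for marginal zone macrophages and -2.22 for neutrophils. The medians of interferon-stimulated genes (-0.96 to -0.53) and plasmacytoid DC genes (0.55 to 1.43) kept their sign under all 9 settings tried for lists. The cause of these shifts was not tested. Signals near the floor limit what low genes can show. No paired analysis was possible because each group has 1 array and the labels carry no replicate numbers.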
